A study of Mus musculus with 12 samples.

Results

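The genes described here encode the proteins of the mitochondrial ribosome and of the machines that bring proteins into mitochondria. They were taken by symbol: every gene named alone for its array element in the platform annotation whose symbol begins with Mrpl, Mrps, or with Timm or Tomm and a digit. This gave 59 of the 6786 named genes, measured by 71 clones on 142 spots. By symbol, 32 belong to the large ribosomal subunit, 12 to the small subunit, 9 to import at the inner membrane and 6 to import at the outer membrane. A single clone stood for 48 of the genes, 10 had 2 clones, and Tomm20 had 3.

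Mitochondria make a few respiratory chain proteins from their own genome on their own ribosomes, whose proteins are all encoded in the nucleus and imported. Nearly every other mitochondrial protein is made in the cytosol, enters through the TOM complex of the outer membrane, and is then handled by small chaperones of the intermembrane space and by the TIM23 or TIM22 complex of the inner membrane. In the kidney, mitochondria are dense in the salt-reabsorbing tubules of the cortex and outer medulla and sparse deeper in the medulla, where oxygen is low.

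The study asked how restricting water changes gene expression in the renal medulla, the region that concentrates urine. Amplified RNA of 3 water-restricted mice, here WR1 to WR3, and 3 control mice, C1 to C3, was co-hybridised to 2-colour arrays in all 9 pairings, with Alexa Fluor 546 on one mouse's RNA and Alexa Fluor 647 on the other's. The pairings WR1 with C3, WR2 with C1 and WR3 with C2 were also made with dyes exchanged. This gives 12 arrays, 6 that label the WR mouse with Alexa Fluor 546 (546 arrays) and 6 that label it with Alexa Fluor 647 (647 arrays). The labels give no strain, sex, age, or length or degree of water restriction.

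Each deposited value is a log2 ratio of the 2 mice on an array, so it gives a difference and no level of expression. The dye in the numerator is not stated. The 647 arrays had their sign changed, on the assumption that all arrays then run one way. The deposited ratios of the dye-swapped pairs correlated at -0.14, 0.13 and -0.13, a weak basis for it. If the authors divided the Alexa Fluor 546 signal by the 647 signal, positive values stand for more RNA in WR mice, and if they divided the other way, for less. If the sign change is right, signs are comparable between genes, while the direction with respect to water restriction is unsettled. If it is wrong, the differences between groups given below would instead hold the shift between dyes. The array of WR2 with C2 stood apart, with an SD over spots of 1.21 against 0.515 to 0.764 on the other 11. Several results that rest on it are given with and without it. Medians and differences on the 546 arrays include it. The tissue could not be checked by the presence of its markers, since ratios hold no level. In these bulk samples fewer cells of a type and less RNA per cell cannot be told apart.

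From the 12 arrays a relative level was fitted for each mouse and gene, centred so that the 6 mice average 0, and the 3 WR mice were compared with the 3 C mice. Most members leaned to the positive side by a small amount, and none passed the test against the spread between mice. The difference, WR minus C, was positive in 44 of 59 members (74.6%), against 50.7% of all genes, with a median of 0.12 against 0.00. By limma with Benjamini-Hochberg adjustment 0 of 59 members passed 0.05, and 0 of 6786 genes did (0%). The smallest limma adjusted p of a member was 0.553. At an unadjusted p under 0.05 there were 5 members on the positive side (8.47%), where 3.21% of all genes lay, and 0 on the negative side, where 1.75% lay. The levels of the 2 groups did not overlap in 9 members on the positive side (15.3%), against 5.94% of all genes, and in 0 on the negative side, against 3.86%. A fit with mice as random effects called 1 member, Timm8a1, on the positive side, where it called 0.943% of all genes. That fit took 1 ratio of mouse to array variance for all genes, and its residual error came from the arrays. Its p-values therefore do not measure a gene's own spread between the 3 mice of a group.

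The lean was not carried evenly by the mice. Averaged over the 59 members, the level was -0.10, 0.15 and 0.16 in WR1 to WR3, and -0.08, -0.14 and 0.01 in C1 to C3. WR1 thus lay within the range of the C mice, and the groups overlapped. The array of WR2 with C2 added to the lean: without it the median was 0.05 with 36 of 59 members positive (all genes, median -0.00 with 3348 of 6786 positive). Groups then did not overlap on the positive side in 10 members (16.9%, against 6.07% of all genes), 7 of them among the 9 above. On the negative side Mrpl58 then did not overlap, 1 of 59 members against 339 of 6786 genes. Without that array the medians were 0.06 in the large and 0.02 in the small subunit. They were 0.25 in inner and 0.11 in outer membrane import.

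**Figure D1:**
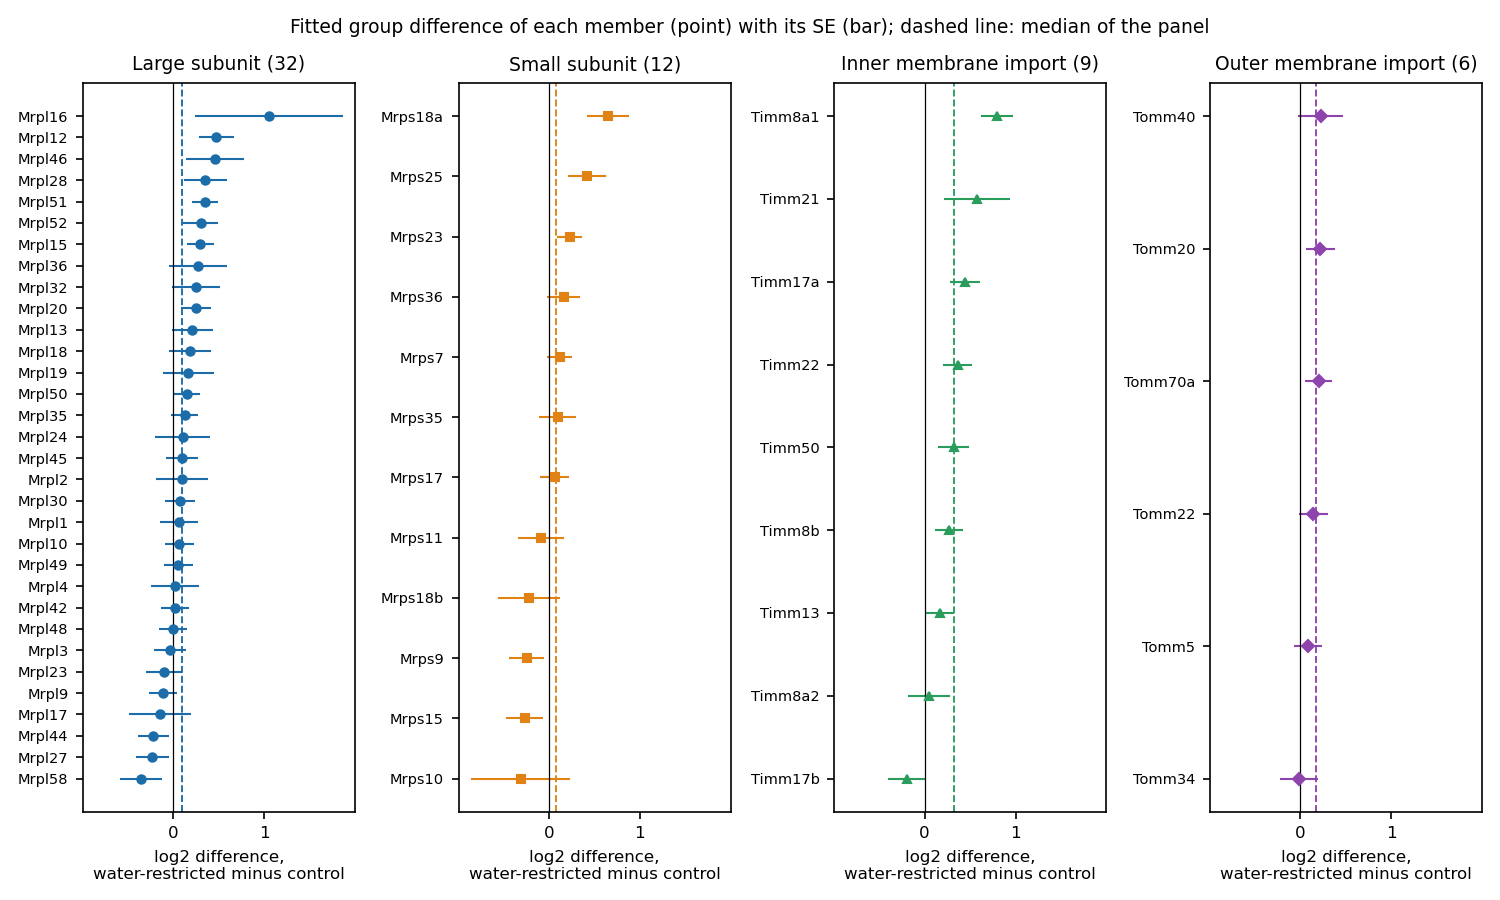
Fitted log2 difference of each of the 59 members, water-restricted minus control (point), with its standard error (bar), in 4 panels by role on a common horizontal scale; the dashed line is the panel's median. The medians are 0.10 and 0.08 in the ribosomal subunits, 0.32 in inner membrane import and 0.17 in outer membrane import, and the wide bar of Mrpl16 goes with 1 array.

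The 5 members with the smallest p, all positive, were Timm8a1, Mrps18a, Timm17a, Mrpl12 and Mrpl51. Their promoters are shown because nuclear genes for mitochondrial proteins are known as targets of NRF1 and of the ETS factor GABP, so that a reader can see which of these carry the motif. The windows are the 150 bases directly before the annotated start in RefSeq for GRCm38.p6, 5′ to 3′ on the gene's strand, and capitals mark the ETS motif CCGGAAG or its reverse complement CTTCCGG. Timm8a1 lies at chrX:134541671-134541820 (minus strand), Mrps18a at chr17:46110854-46111003 (plus), Timm17a at chr1:135313738-135313887 (minus), Mrpl12 at chr11:120484487-120484636 (plus) and Mrpl51 at chr6:125192050-125192199 (plus).
Timm8a1: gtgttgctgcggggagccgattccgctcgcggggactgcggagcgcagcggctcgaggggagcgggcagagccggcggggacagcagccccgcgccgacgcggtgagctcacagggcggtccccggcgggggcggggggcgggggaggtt
Mrps18a: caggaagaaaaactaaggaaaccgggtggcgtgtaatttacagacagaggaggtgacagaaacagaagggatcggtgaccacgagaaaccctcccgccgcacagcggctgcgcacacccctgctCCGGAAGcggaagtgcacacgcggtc
Timm17a: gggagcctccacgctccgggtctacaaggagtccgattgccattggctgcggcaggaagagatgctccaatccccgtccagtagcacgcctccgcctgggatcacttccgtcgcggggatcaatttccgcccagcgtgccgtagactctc
Mrpl12: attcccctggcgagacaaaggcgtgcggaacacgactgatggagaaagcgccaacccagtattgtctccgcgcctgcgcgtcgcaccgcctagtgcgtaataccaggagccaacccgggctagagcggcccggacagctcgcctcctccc
Mrpl51: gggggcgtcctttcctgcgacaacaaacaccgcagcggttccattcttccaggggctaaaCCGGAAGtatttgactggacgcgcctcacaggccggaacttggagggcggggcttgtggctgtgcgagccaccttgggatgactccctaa

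The ETS motif ended 20 bases before the start of Mrps18a and 84 bases before that of Mrpl51, and these letters were not in the windows of the other three genes. Over windows of 300 bases, from 250 before to 50 after the start, 53 of the 59 members had a sequence. The ETS motif was in 16 of them (30.2%), against 9.93% of 27025 genes with a window. The NRF1 motif, GCATGCGC or its reverse complement GCGCATGC, was in 6 (11.3%), against 3.05%, and the 2 motifs share no more than 1 base where they touch. Mrpl17 and Mrps18b held both. Median GC content was 57.7% in the members' windows and 52.8% in all. These counts describe the sequences and say nothing of whether the factors bind there.

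Among the 9 inner membrane import genes 8 were positive, with a median of 0.32 and a range from -0.19 to 0.80, and 0 passed. The largest difference belonged to Timm8a1, which encodes a small chaperone that guides hydrophobic precursors across the intermembrane space and whose human counterpart is mutated in a deafness-dystonia syndrome. Its level was 0.19, 0.50 and 0.51 in WR1 to WR3 and -0.26, -0.66 and -0.28 in C1 to C3. Every WR mouse lay above every C mouse on this signed scale. The difference was 0.80 with an SE of 0.18 over 3 mice in each group (limma adjusted p = 0.553), or 1.74-fold, with 12 of 12 arrays positive, from 0.14 to 1.38. With the deposited signs left as they were on all arrays it was -0.22, a value that measures the shift between dyes if the sign change is right. The fit with random mouse effects gave limma adjusted p = 0.0185. Without the array of WR2 with C2 the difference was 0.66 (SE 0.16, limma adjusted p = 0.407).

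Timm8a2, a close relative of Timm8a1, stood at 0.05 (SE 0.23) and its groups overlapped. Whether the clones of these relatives share signal was not tested. Timm13, the partner of Timm8a1 in the chaperone complex, had 0.16 (SE 0.16), with clones at 0.15 and 0.18, and Timm8b, a further small chaperone, had 0.27 (SE 0.15). Timm8b had 0.08, 0.11 and 0.21 in WR1 to WR3 and -0.27, -0.15 and 0.02 in C1 to C3, so its groups were apart by less than 0.1 at their nearest.

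The core of TIM23, the channel for precursors with a presequence, was represented by Timm17a, Timm17b, Timm50 and Timm21. Timm17a had levels of 0.08, 0.11 and 0.47 in WR1 to WR3 and -0.26, -0.28 and -0.11 in C1 to C3. The groups did not overlap, with WR3 well above the other mice, and the difference was 0.44 (SE 0.17, limma adjusted p = 0.904). Without the array of WR2 with C2 it was 0.33 and the groups overlapped. Its paralog Timm17b, the lowest of the 9, stood at -0.19 (SE 0.21), with levels of -0.42, -0.01 and 0.14 against -0.20, 0.35 and 0.13. Timm50, the presequence receptor of the channel, had 0.32 (SE 0.17), with clones at 0.26 and 0.37. Timm21, which links the channel to respiratory complexes, had 0.57 (SE 0.36). That value moved with the array of WR2 with C2, at 3.76, and without it the difference was -0.10 (SE 0.55). Other arrays of Timm21 were also far from 0, at 2.61 for WR3 with C1 and -1.19 for WR1 with C2.

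Timm22 forms the channel that inserts metabolite carriers into the inner membrane. It is singled out after its values were seen, because it was the only member besides Timm8a1 whose averaged spots had 1 sign on all arrays. The share of all genes with 1 sign on all arrays was not counted. Its levels were 0.00, 0.14 and 0.40 in WR1 to WR3 and -0.24, -0.20 and -0.11 in C1 to C3, and the groups did not overlap. The difference was 0.36 (SE 0.16, limma adjusted p = 0.996), and the arrays ran from 0.00 to 0.80. Its 2 spots lay on opposite sides of 0 on several arrays, among them -0.52 and 0.53 on the 546 array of WR1 with C3. The SD between its spots was 0.40, so the single sign holds for their averages only.

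Of the 6 outer membrane genes 5 were positive, with a median of 0.17, and 0 passed or had groups apart. Tomm40, the pore of the complex, was the highest at 0.22 (SE 0.25, limma adjusted p = 0.996). Its levels were -0.13, -0.18 and 0.64 in WR1 to WR3 and -0.39, 0.12 and -0.06 in C1 to C3. WR3 alone lay above all C mice, and the groups overlapped. The receptors that first bind precursors, Tomm20, Tomm22 and Tomm70a, had 0.22 (SE 0.16), 0.14 (SE 0.16) and 0.20 (SE 0.15), and without the array of WR2 with C2 Tomm22 had -0.06. All 3 clones of Tomm20 were positive, at 0.31, 0.13 and 0.23. Tomm5, a small subunit of the complex, had 0.08, with its clones at -0.02 and 0.19. Tomm34, a cytosolic co-chaperone of import, was the lowest at -0.01 (SE 0.21) with all arrays and -0.18 without that array.

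In the small ribosomal subunit 7 of 12 genes were positive, with a median of 0.08 and a range from -0.31 to 0.65, and 0 passed. Mrps18a, whose product is a homolog of bacterial S18 that structures place in the large subunit despite its name, was the highest. Its levels were 0.03, 0.53 and 0.42 in WR1 to WR3 and -0.10, -0.78 and -0.10 in C1 to C3, so the groups did not overlap, with WR1, C1 and C3 close together. The difference was 0.65 (SE 0.23, limma adjusted p = 0.864), with 11 of 12 arrays positive. The array of WR2 with C2 read 2.41, and without it the difference was 0.43. Mrps18b, another S18 homolog, stood at -0.22 (SE 0.34), and at -0.02 without that array.

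The lower end of the small subunit held Mrps10, Mrps15 and Mrps9, homologs of bacterial proteins of the same numbers. Mrps10 had -0.31 (SE 0.54), with levels of -1.52, 0.34 and 0.71 in WR1 to WR3 and 0.80, -0.16 and -0.16 in C1 to C3. Its spread came with the array of WR1 with C1, at -3.89, where both spots were low (-3.95 and -3.82). Mrps15 had -0.27 (SE 0.20) and Mrps9 -0.25 (SE 0.20), and in both the groups overlapped. Mrps9 had -0.36, -0.23 and 0.22 in WR1 to WR3 against -0.02, 0.08 and 0.31 in C1 to C3, so that WR3 alone lay among the C mice. Mrps25 had 0.42 (SE 0.21) with 11 of 12 arrays positive, and Mrps36, which is known today as a subunit of the oxoglutarate dehydrogenase complex and not of the ribosome, had 0.16 (SE 0.18).

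In the large subunit 24 of 32 genes were positive, with a median of 0.10 and a range from -0.36 to 1.05, and 0 passed. Mrpl12, which forms the flexible stalk that recruits translation factors and also binds the mitochondrial RNA polymerase, had levels of -0.01, 0.11 and 0.61 in WR1 to WR3. In C1 to C3 they were -0.30, -0.30 and -0.11. The groups did not overlap, and WR3 stood highest. The difference was 0.47 (SE 0.19, limma adjusted p = 0.939), and it was 0.35, with overlapping groups, without the array of WR2 with C2. Mrpl51, a protein with no bacterial counterpart, had 0.05, 0.24 and 0.24 in WR1 to WR3 and -0.18, -0.23 and -0.10 in C1 to C3. It was narrowly spread within groups, and its difference was 0.35 (SE 0.14, limma adjusted p = 0.961), with 11 of 12 arrays positive. Mrpl15 also had groups apart, at 0.30 (SE 0.15).

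Mrpl16, a homolog of bacterial L16 near the peptidyl transferase centre, had the largest value of any member, 1.05 (SE 0.81), and that value came with 1 array. On the array of WR2 with C2 both of its spots read 7.96, while the other 11 arrays ran from -0.15 to 0.40, and without that array the difference was 0.13 (SE 0.17). Mrpl46 (0.46, and 0.29 without it) and Mrpl24 (0.10, and -0.11 without it) moved with the same array, where they read 2.63 and 2.54.

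The lowest large-subunit genes were Mrpl58, Mrpl27 and Mrpl44. Mrpl58 is a peptidyl-tRNA hydrolase that frees stalled ribosomes. It had levels of -0.00, -0.59 and 0.06 in WR1 to WR3 and -0.02, 0.50 and 0.06 in C1 to C3, with only the mice numbered 2 far from 0. Its difference was -0.36 (SE 0.23, limma adjusted p = 0.996), and -0.25 without the array shared by those mice. Mrpl27, near the peptidyl transferase centre, had -0.23 (SE 0.18), and Mrpl44, which carries an RNase III-like fold, had -0.22 (SE 0.17) with 2 of 12 arrays positive. The groups overlapped in both. Clones of 1 gene lay on opposite sides in Mrpl23 (0.01 and -0.21), Mrpl50 (0.42 and -0.13) and Mrpl48 (0.01 and -0.01), besides Tomm5.

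**Figure D2:**
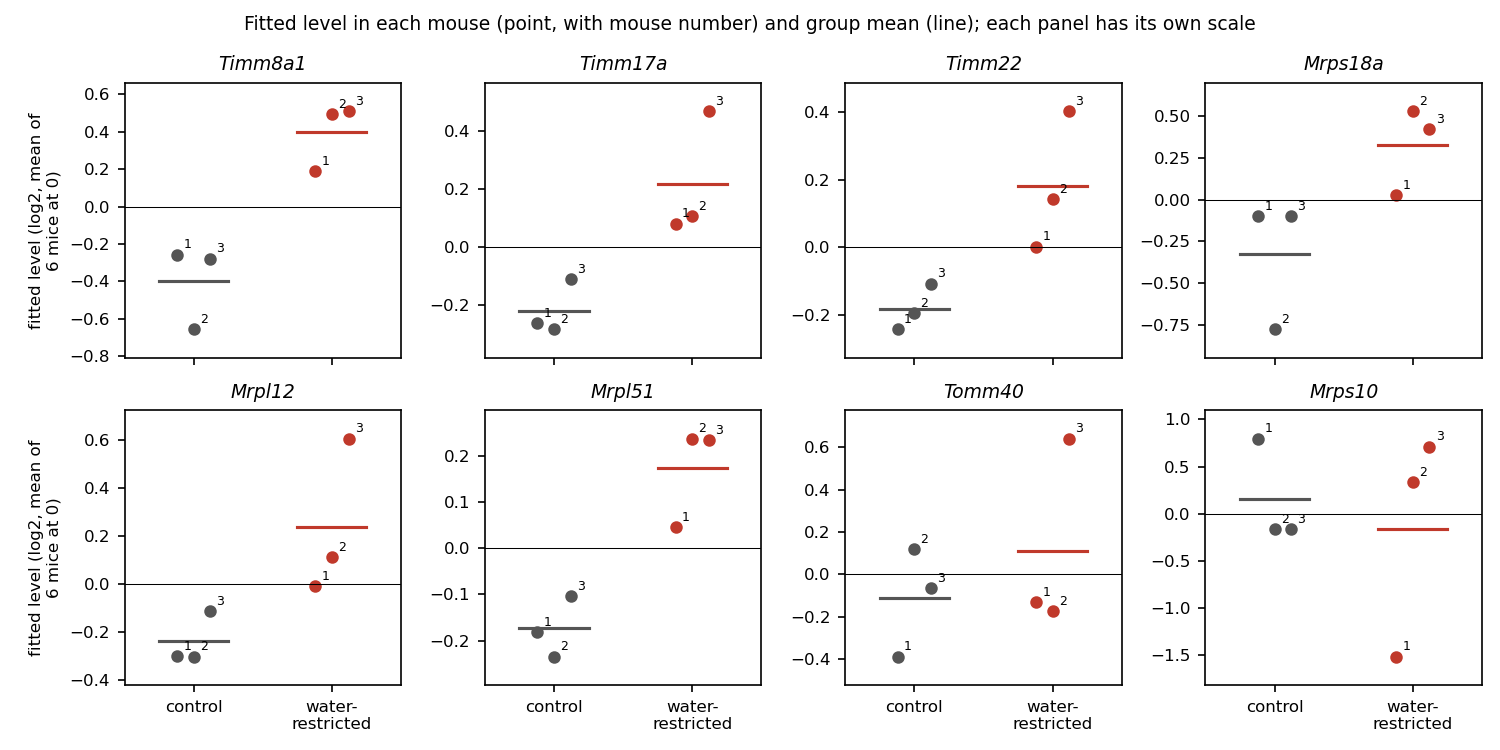
Fitted relative level (log2, mean of the 6 mice at 0) of 8 members in each control mouse (grey) and water-restricted mouse (red), with the mouse's number beside the point and a line at the group mean; each panel has its own vertical scale. The groups do not overlap in Timm8a1, Timm17a, Timm22, Mrps18a, Mrpl12 and Mrpl51, and overlap in Tomm40 and in Mrps10, where WR1 lies at -1.52.

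The members' difference depended on the dye orientation. On the 546 arrays the median was 0.27 and 51 of 59 members were positive (all genes, 0.05 and 57.5%). On the 647 arrays the median was -0.01 and 28 were positive (all genes, -0.04 and 43.8%). Both orientations were positive in 25 members (42.4%), against 24.5% of all genes, and 26 (44.1%) were positive on the first and negative on the second, against 33% of all genes.

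The ribosome and the import genes differed in these values. The large subunit had a median of 0.31 on 546 arrays and -0.07 on 647 arrays, and the small subunit 0.23 and -0.15. Inner membrane import had 0.33 and 0.21, with 6 of 9 genes positive in both, and outer membrane import had 0.08 and 0.15. Whether roles differ was not tested. Timm8a1 had 0.53 and 0.98, Timm22 0.33 and 0.35, Timm17a 0.46 and 0.33, and Timm50 0.18 and 0.39. Mrps18a had 1.00 and 0.21, Mrpl12 0.61 and 0.26, and Mrpl51 0.48 and 0.15.

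**Figure D3:**
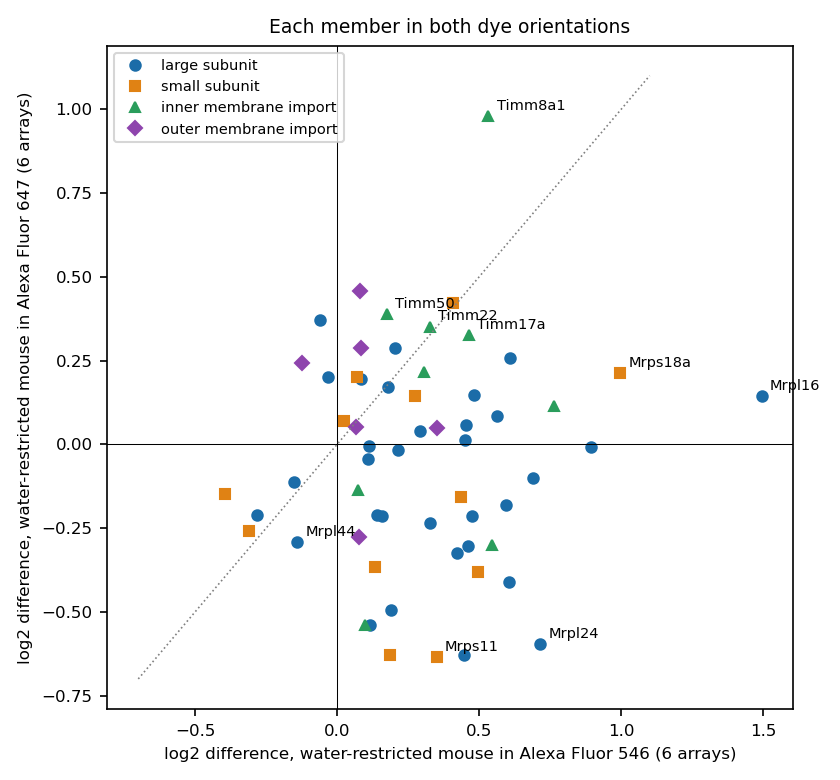
Log2 difference of each of the 59 members on the 546 arrays (horizontal) and on the 647 arrays (vertical), by role; the dotted line marks equal values. Timm8a1, Timm22, Timm17a and Timm50 lie near or above the line in the upper right, while 26 members lie in the lower right, positive on 546 arrays only.

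By array, the median of the 59 members was positive on all 6 arrays labelled 546, from 0.11 for WR1 with C3 to 0.48 for WR2 with C2, where the median of all genes was 0.17. On the 647 arrays it was negative on 5 of 6 arrays, from -0.17 to -0.02. The median of all genes was negative on all 6, from -0.07 to -0.01. On WR3 with C2 both medians were -0.05, and on WR2 with C1 that of the members was the higher, -0.02 against -0.07. The 1 positive median of the members was that of WR3 with C1, at 0.31 with 41 members positive, while the median of all genes there was -0.01. Import genes had a median of 0.77 on that array and ribosomal genes 0.15.

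**Figure D4:**
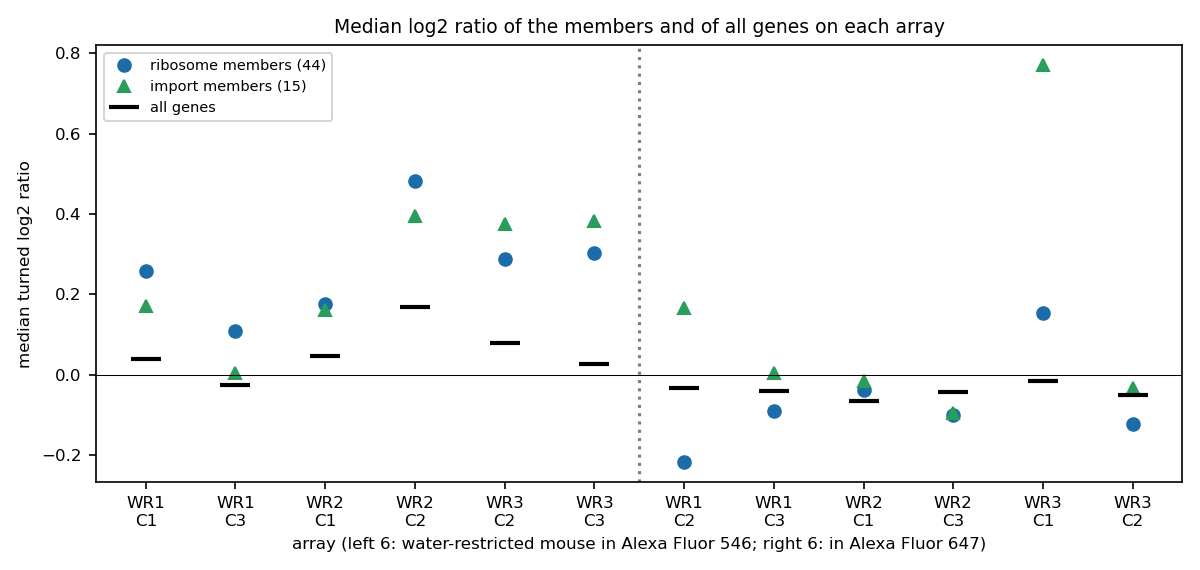
Median log2 ratio, turned to 1 sign, of the 44 ribosomal members (circles), the 15 import members (triangles) and all genes (bars) on each of the 12 arrays, named by their WR and C mouse. All arrays left of the dotted line have positive ribosomal medians, and on the right only the array of WR3 with C1 does.

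The dye term of the fit measures the shift of a deposited ratio that does not depend on which mouse was in which dye, and it cancels from the group difference where orientations are balanced. It was positive in 42 of 59 members, with a median of 0.17 against 0.05 for all genes. By limma over all 12 arrays 10 members passed 0.05, all on the positive side (16.9%, against 5.11% of all genes), and 0 on the negative side (1.5% of all genes). Without the array of WR2 with C2, 9 members passed on the positive side (15.3%, against 6.62% of all genes) and 2 on the negative side (3.39%, against 3.14%). Of the 10, 8 were still among them; Mrpl9 and Mrpl28 were not (limma adjusted p = 0.0513 and 0.0640), and Mrpl49 was added. When any 1 of the 6 mice was left out, with its 4 arrays, 0 members passed.

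The 10 were Mrpl2, Mrpl9, Mrpl24, Mrpl27, Mrpl28 and Mrpl30 of the large subunit, Mrps11, Mrps15 and Mrps35 of the small subunit, and Timm13. Mrps11 had the smallest p, with a dye term of 0.49 (SE 0.10, limma adjusted p = 0.0266), followed by Mrpl24 at 0.66 (SE 0.14, limma adjusted p = 0.0297) and Timm13 at 0.42 (SE 0.09, limma adjusted p = 0.0304). Mrpl24 was positive on 6 of 6 arrays labelled 546 and on 0 of 6 labelled 647. Mrps15 showed the same split, with a median of 0.12 on 546 and -0.54 on 647 arrays. The other 7 had dye terms from 0.33 for Mrpl27 to 0.54 for Mrpl9. Timm8a1 had -0.22 and did not pass with all arrays (limma adjusted p = 0.189). It passed without the array of WR2 with C2, at -0.32 (limma adjusted p = 0.0305), as did Tomm22 at -0.34 (limma adjusted p = 0.0318).

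Mice of the same group were compared with each other by limma's F-test, in which the error is that between arrays. Of the members 0 passed (smallest limma adjusted p = 0.308), against 0.206% of all genes, and 7 of 59 had an unadjusted p under 0.05, against 12.8% of all genes. The largest F belonged to Mrpl17, Mrps11 and Tomm40. Mrpl17 had levels of -0.89, 0.49 and 0.18 in WR1 to WR3 and 0.41, -0.04 and -0.15 in C1 to C3, with WR1 lowest. Mrps11 had -0.39, -0.26 and 0.51 against -0.16, 0.04 and 0.25. In Mrps11 and Tomm40 WR3 was the highest of the 6 mice.

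Genes that work with the members were measured in part, and 0 of each list passed. Of 35 listed import partners, chaperones and processing enzymes 22 were measured, and 16 were positive, with a median of 0.21 (0.41 on 546 arrays and 0.00 on 647 arrays). Among them Hspd1, the mitochondrial chaperonin, had 0.62 (SE 0.22), Spg7, a subunit of the m-AAA protease, 0.56 (SE 0.23), Grpel1, the nucleotide exchange factor of the import motor, 0.44 (SE 0.14), and Hspa9, the motor's Hsp70, 0.43 (SE 0.19). Their limma adjusted p ran from 0.771 to 0.996. Of 27 listed translation factors and RNA enzymes 13 were measured, not counting Mrpl58, and 7 were positive, with a median of 0.01. Lrpprc, which stabilises mitochondrial mRNAs, had 0.47 (SE 0.15) with 12 of 12 arrays positive, a limma adjusted p of 0.771 and one of 0.0219 with random mouse effects, and the elongation factor Gfm1 had 0.45 (SE 0.15). Mitochondrial tRNA synthetases had 7 of 9 positive and a median of 0.06. Genes of mitochondrial genome expression and biogenesis had 6 of 12 positive and a median of -0.02. The nuclear receptor Esrra had 0.65 (SE 0.27) with overlapping groups. The only genes of this list with groups apart were 2 negative ones, among them Pprc1 at -0.28 (SE 0.16).

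Beside the members, 54 of 62 nuclear genes taken by symbol for the respiratory chain and ATP synthase were positive, with a median of 0.19. Most encode subunits that are imported, and the list also holds assembly factors and the pseudogene Ndufs5-ps. The cytosolic ribosome lay on the other side, with 59 of its 67 measured protein genes negative and a median of -0.18. Without the array of WR2 with C2 these medians were 0.15 and -0.26. On 647 arrays the respiratory chain had a median of 0.03 and the cytosolic ribosome one of -0.44, and on 546 arrays 0.35 and 0.04. The lists were compared by these counts alone, and no list was tested against another.

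Markers of other cell types lay apart between the groups in part, and 0 of any marker list passed limma's test between groups. Of 29 proximal tubule markers 5 were measured and 4 were positive. Averaged over the 5, the level ran from 0.39 to 0.54 in WR mice and from -0.92 to 0.22 in C mice, without overlap. Taken singly, groups were apart in 2 of the 5, Miox and Lrp2. In Slc22a7, C1 at 0.91 lay above every WR mouse, and in Gatm, at 0.65, above WR1 and WR2. The F-test described above passed 2 of the 5, against 0.206% of all genes, so mice within a group also differed in these markers. Of 18 principal cell markers, of the collecting duct, 8 were measured and all 8 were negative, with a median of -0.36. Their mean level ran from -0.30 to -0.15 in WR mice and from 0.11 to 0.42 in C mice, and taken singly groups were apart in 3 of the 8. Random mouse effects called 2 of the 5 proximal tubule markers, positive, and 3 of the 8 principal cell markers, negative. Of all 6786 genes that fit called 64 positive and 35 negative. Among other markers, Hbb-b1, a haemoglobin chain of red cells, had -0.999 with 0 of 12 arrays positive (limma adjusted p = 0.702, and 0.00514 with random mouse effects). Slc4a1, of intercalated and red cells, had -0.74, and Col3a1, of the interstitium, -0.56, and the groups did not overlap in these 3 genes. Random mouse effects called Col3a1 (limma adjusted p = 0.0254) and not Slc4a1 (limma adjusted p = 0.0922). The lists did not move as one. Of the 8 interstitium markers 3 were positive, and Dcn had 0.55 with 12 of 12 arrays positive and groups apart. Alas2, listed with Hbb-b1, had -0.24 with overlapping groups. The 2 endothelial markers, the 8 of the interstitium and the 1 of leukocytes had medians of 0.08, -0.23 and 0.40. None of the listed thick ascending limb markers was among the named genes. The part of these markers in the members' differences was not tested.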

How the data were processed

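Renal medulla RNA of 3 water-restricted and 3 control mice was compared on 12 two-channel arrays. The authors deposited 1 log2 ratio per spot and array, for 31200 spots. The base was read from the values, while nothing given here names the background correction, the normalization or the numerator dye. Signal over background and depth are unknown, and the number of arrays limits the precision. Adjacent spots were averaged to 15600 clones, of which 9191 had 1 gene in the platform annotation, 254 several and 6155 none, and clones were averaged to 6786 genes. Arrays that label the water-restricted RNA with Alexa Fluor 647 were sign-changed, on the assumption that all arrays then run one way. The deposited ratios of dye-swapped pairs correlated at -0.14, 0.13 and -0.13, a weak basis for it.

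For each gene, weighted least squares gave a level per mouse (swapped arrays weighing 0.5, with a dye term). The 2 groups of levels were then tested in limma 3.58.1 (R 4.3.3) by lmFit and eBayes, with Benjamini-Hochberg adjustment over all genes and a threshold of 0.05. The F-test between mice and the dye term were fitted on 12 equally weighted arrays. Random mouse effects used 1 ratio of mouse to array variance, 0.15, for all genes, with residual degrees of freedom from the arrays. The fits were tested on simulated data. Members, lists and rules were chosen with earlier results of these data known. Genes named one by one were those past a threshold, the 5 of smallest p per side, the extremes of each role, the 3 of largest F and of smallest dye p, and those with clones on opposite sides. Further members named in the text were chosen after their values were seen. Up to 4 genes per pathway list were named by smallest p. The alternatives were scaling, dye term, weights, replicate unit, subsets of arrays, signs, clones, variance, block and leaving out each mouse.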

Additional observations from a re-analysis of the deposited data

Results flagged for a closer look

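On the 6 arrays of each dye orientation, 1 array lay far from the other 5 in 12 of 58 groups of values examined, where chance flags about 1 in 20 groups that were not selected. The groups are mostly members named for extreme values, so that rate is no yardstick for the 12. On the 546 arrays, the array of WR2 and C2 held 6 of these: Mrpl16 read 7.96 (the others -0.15 to 0.40), Mrpl24 2.54 (0.11 to 0.56), Mrps18a 2.41 (0.43 to 1.11), Mrpl23 1.08 (-0.14 to 0.13), Mrpl51 0.81 (0.37 to 0.48) and Mrpl58 -1.44 (-0.33 to 0.21). On 546 arrays also, Mrps10 read -3.89 on the array of WR1 and C1 (the others -0.18 to 0.64), and Mrps15 read 0.53 on that of WR3 and C2 (0.07 to 0.19).

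On the 647 arrays, the array of WR3 and C1 held 3: Mrpl28 read 1.11 (the others -0.65 to -0.19), Tomm40 0.88 (-0.35 to -0.00), and the median of all 59 members 0.31 (-0.17 to -0.02). Mrpl50 read 0.63 on the array of WR1 and C3 (-0.18 to 0.12).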

How the results depend on the processing

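The count of 0 members past the threshold between groups was also found with median centring, scale normalization, no dye term, equal weights, 1 dye orientation, swapped pairs alone, deposited signs, medians over clones, robust eBayes, an adjusted p under 0.1, without the array of WR2 with C2, and without any 1 mouse. It was 8 with arrays as replicates (13.6%, against 6.65% of all genes), 1 with random mouse effects and 5 at an unadjusted p under 0.05. The members' median was 0.27 on 546 arrays and -0.0094 with 28 positive on 647 arrays, from 0.10 to 0.20 with 40 to 49 positive when 1 mouse was left out, and 0.16 with 44 positive (59.4% of all genes) with deposited signs. The dye term had 16 members at an adjusted p under 0.1 (27.1%, against 14.3% of all genes), 24 at an unadjusted p under 0.05 (40.7%, against 26%), 0 with swapped pairs alone and 0 to 0 without 1 mouse, settings with fewer arrays. The F-test had 7 at an unadjusted p under 0.05, and could not be fitted on swapped pairs alone. Of the 28 members named by rule, 8 changed sign on 546 arrays, 6 on 647 arrays, 11 with deposited signs, 6 on swapped pairs, 2 to 7 without 1 mouse and 1 (Mrpl24) without the array of WR2 with C2. Among the 10 with the smallest p, 5 per side, those that changed sign in the subsets of arrays were Mrpl27 (0.12) and Mrps15 (0.19) on 546 arrays and Mrpl58 (0.082) on swapped pairs. The cause in the subsets was not tested. With deposited signs they were Timm8a1 (-0.22), Mrpl27 (0.35), Mrps15 (0.42), Mrps9 (0.019) and Mrpl44 (0.073). If the sign change is right, the difference fitted with deposited signs holds the shift that the dye term measures (members' median 0.17). That setting is then no check of the difference between groups. With the mouse number as a block, 0 members passed, the median was 0.12 and 44 were positive, and deviations of same-numbered mice correlated at -0.01, -0.54 and -0.11.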
